A study of Homo sapiens with 6 samples.

Results

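YAP1, its paralog WWTR1 (the gene of TAZ), the TEA-domain factors TEAD1 to TEAD4 and the vestigial-like cofactors VGLL1, VGLL3 and VGLL4 were followed in HCT116, a human colorectal cancer cell line. These 9 genes were taken by symbol from 2 deposited mRNA tables joined by transcript identifier, and they cover 72 of 92866 transcripts and 9 of 19871 gene symbols. The cells formed 3 groups of 2 libraries each, 6 in all. The siYAP group received YAP-specific siRNA, the GAS5 group received a plasmid of GAS5, a long noncoding RNA, and the control group was named NC. All 3 groups are listed under siRNA in the sample labels. What the NC cells received, which siRNA was used and how long the cells were treated are not given in the sources used here. An effect of plasmid transfection therefore cannot be told apart from an effect of GAS5. In the same way, an effect of siRNA transfection cannot be told apart from an effect of lower YAP. The GAS5 transcript itself is not analysed here.

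YAP and TAZ are coactivators that do not bind DNA on their own. They enter the nucleus when the Hippo kinases are inactive and bind TEAD factors, which carry the DNA-binding TEA domain. Hippo kinases of the LATS family phosphorylate YAP and TAZ, which are then held in the cytoplasm or degraded. VGLL proteins bind TEADs at an overlapping surface, and VGLL4 is known as a competitor of YAP. In the intestine, YAP and TAZ are known for roles in regeneration after injury and in tumour growth. The comparison of siYAP with NC asks whether the mRNA of WWTR1 or of the TEADs was higher where that of YAP1 was lower.

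Each deposited value is a group mean that the authors took over its libraries, so the spread between the libraries of a group is not known, and no new test between groups could be run on these means. Estimated counts per library came on average to 27206123 in NC cells, 25521577 with GAS5 and 26298036 with siYAP. Counts were summed by gene and scaled to NC by the trimmed mean of M values (TMM). A log2 fold change was taken after a prior count of 2 was added to both means. The bracketed 95% interval beside it is an exact Clopper-Pearson interval on the fragments behind the means, and it covers counting error only. Spread between cultures is not in it, so an interval that leaves out 0 is not a test of the treatment. For a single transcript the counts are estimates, and error in splitting reads between transcripts is not in the interval either. A gene counted as expressed if its mean over the groups reached 50 counts, which 11907 genes did, and 7 of the 9 factors were among them. Past 2-fold means a log2 fold change of 1 or more, up or down, and past 1.4-fold means 0.5 or more.

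The cells carried epithelial markers: 7 of 8 reached 1 FPKM (fragments scaled by transcript length and library size) in every group, and VIL1, a brush-border protein, was listed at 0 in NC. Their summed level was 3375 FPKM in NC cells, 3811 with GAS5 and 4492 with siYAP. Of 12 markers of fibroblasts, endothelial cells and blood cells, 2 reached 1 FPKM in every group, COL1A1 and CD68, and DCN and PTPRC were at 0 in all 3 groups. That list summed to 6.89 FPKM in NC cells, 9.5 with GAS5 and 7.56 with siYAP. The part of these differences in the results on YAP1 and its partners was not tested. All groups are of the same cell line. In its bulk RNA, a different share of cells expressing a marker and a different level per cell cannot be told apart.

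YAP1 (ENSG00000137693.13, chr11:102110461-102233423 on the plus strand, GRCh38, GENCODE 29) encodes the factor that the siRNA was aimed at. Its transcripts differ in 3 optional coding stretches, shown here because transcripts with and without each of them were measured. Exon 4 spans 114 bases (chr11:102186018-102186131) and encodes the second WW domain, which binds proline-rich partners. A 12-base extension of exon 5 (chr11:102206075-102206086) and the 48-base exon 6 (chr11:102209517-102209564) lie further towards the end of the coding sequence. The sequences were read from the transcript YAP1-210 in GENCODE 29, and capitals mark the extension within its flanking bases.
YAP1 exon 4: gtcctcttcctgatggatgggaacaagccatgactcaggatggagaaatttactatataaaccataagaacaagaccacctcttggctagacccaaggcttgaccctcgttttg
YAP1 exon 5 extension: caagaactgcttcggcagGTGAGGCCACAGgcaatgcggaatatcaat
YAP1 exon 6: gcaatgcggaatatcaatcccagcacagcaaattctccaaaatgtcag

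The TEAD genes also differ by optional exons, shown for the 3 genes in which transcripts with and without such an exon were measured. TEAD1 and TEAD2 each have an optional exon of 12 bases, at chr11:12878889-12878900 on the plus strand and at chr19:49355959-49355970 on the minus strand. In TEAD4 the optional exon is the first that holds coding bases, of which 226 are annotated as coding (chr12:2994767-2994992, plus strand). It encodes the start of the DNA-binding TEA domain. Capitals mark the 12-base exons of TEAD1 and TEAD2, which match each other at 5 of 12 bases, and the TEAD4 stretch is printed whole.
TEAD1 short exon: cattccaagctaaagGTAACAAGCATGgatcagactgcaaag
TEAD2 short exon: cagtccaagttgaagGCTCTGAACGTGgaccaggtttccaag
TEAD4 first coding exon: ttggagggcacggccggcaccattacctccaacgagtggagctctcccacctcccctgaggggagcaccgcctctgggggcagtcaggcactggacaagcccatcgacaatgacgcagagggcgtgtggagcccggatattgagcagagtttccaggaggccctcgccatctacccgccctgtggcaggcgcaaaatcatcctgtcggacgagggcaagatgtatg

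In NC cells, YAP1 had the highest level per length of the 9 factors, at 46.9 FPKM. TEAD2 followed at 36.4 FPKM, WWTR1 at 27.5, TEAD1 at 26.4, TEAD3 at 22.5, TEAD4 at 17.3 and VGLL4 at 14.1. VGLL3 stood at 0.02 FPKM, and VGLL1 was listed at 0. All 4 TEAD mRNAs and both coactivators were thus present together. Of the vestigial-like cofactors among the 9 factors, only VGLL4 was above 1 FPKM. Without values per library it cannot be said which neighbours in this order differ beyond their spread.

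**Figure D1:**
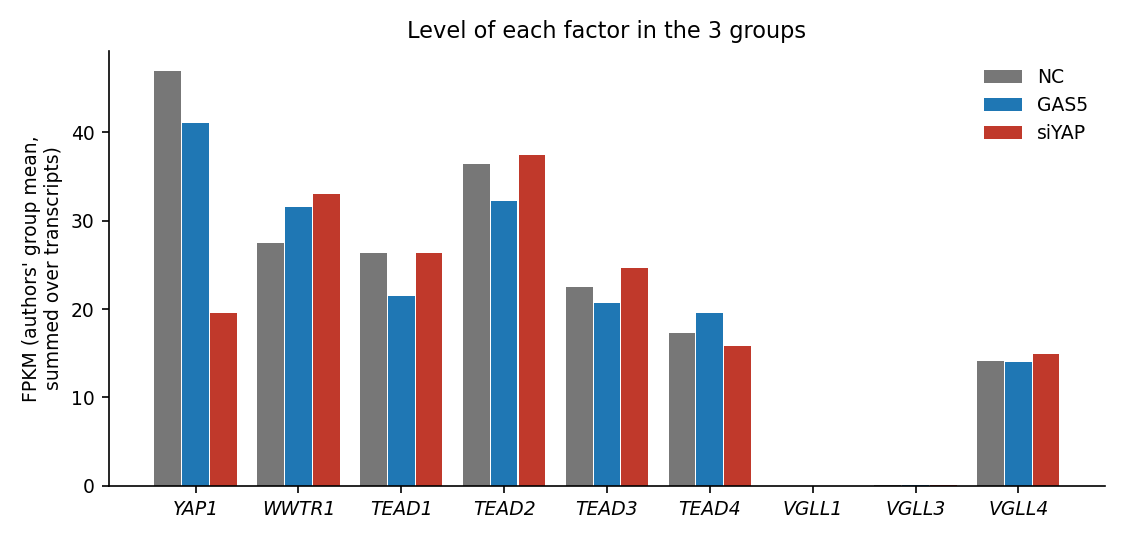
Level of each of the 9 factors in FPKM, as the authors' mean of each group summed over the transcripts of a gene, with no error bars because values per library are not in the tables. YAP1 was 46.9 in NC cells, 41.1 with GAS5 and 19.5 with siYAP, while WWTR1 was 27.5, 31.6 and 33.0.

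YAP1 was lower in siYAP than in NC. Its mean count was 3480 in NC cells, 2679 with GAS5 and 1444 with siYAP. After scaling, siYAP stood at 1537 counts, a log2 fold change of -1.18 [-1.24, -1.12], or 0.442 of the NC level. It was the only factor of the 7 expressed ones past 2-fold or past 1.4-fold in siYAP, where 0.840% of all expressed genes were past 2-fold and 11.4% past 1.4-fold. Among the 11907 genes, YAP1 ranked 27 from the lowest. The siRNA target in the label and the measured mRNA thus point the same way, although part of the control level remained. In FPKM order YAP1 went from the first place among the factors in NC to the fifth in siYAP.

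WWTR1 (ENSG00000018408.14, chr3:149517235-149736714, minus strand) encodes TAZ, which shares most partners with YAP. Its mean count was 1809 in NC cells, 1591 with GAS5 and 2000 with siYAP. In siYAP this gave a log2 fold change of 0.24 [0.17, 0.30], or 1.18 times the NC level. That size was common: 21.7% of all expressed genes had a higher value in the same comparison. The middle of the distribution of all genes lay at 0.00, and its percentiles 5 and 95 lay at -0.55 and 0.50. Of the 4 WWTR1 transcripts with a mean of at least 50 counts, none was lower in siYAP than in NC. WWTR1-203, with 1076, 808 and 1173 counts in NC, GAS5 and siYAP, had a log2 fold change of 0.22 [0.13, 0.30] in siYAP. WWTR1-201, with 547, 514 and 591 counts in the same order, had 0.20 [0.08, 0.32]. Both are annotated with the same 1200 coding bases and differ outside them.

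Because YAP1 was lower and WWTR1 slightly higher, WWTR1 made up a larger part of the pair. WWTR1 was 37.0% of the summed FPKM of YAP1 and WWTR1 in NC cells, 43.5% with GAS5 and 62.8% with siYAP. As a share of summed counts, which does not weigh transcripts by length, WWTR1 was 34.2%, 37.3% and 58.1%. The half-widths of the 95% counting intervals of these count shares were 0.909, 1.03 and 1.17 percentage points. No interval was computed for the FPKM shares. The ratio of WWTR1 to YAP1 in FPKM went from 0.586 in NC to 1.69 in siYAP, so the order of the pair was turned around. The pair together had 74.3 FPKM in NC cells, 72.6 with GAS5 and 52.6 with siYAP. The small difference in GAS5 depended on the measure. In scaled counts YAP1 was at 2912 in GAS5 against 3480 in NC, and WWTR1 at 1729 against 1809. In siYAP, YAP1 differed from NC by -27.3 FPKM and WWTR1 by 5.57 FPKM, which is 20.4% of the size of the YAP1 difference. The sum of both coactivator mRNAs in siYAP was 70.8% of that in NC.

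The 4 TEADs showed no common shift in siYAP. TEAD1 (ENSG00000187079.16, chr11:12674591-12944483, plus strand) had 5626 counts in NC cells, 4140 with GAS5 and 5288 with siYAP, with a log2 fold change of 0.00 [-0.04, 0.04] in siYAP. TEAD2 (ENSG00000074219.13, chr19:49340595-49362457, minus strand) had 1725, 1374 and 1629 counts in the same order of groups, and 0.01 [-0.06, 0.08] in siYAP. TEAD3 (ENSG00000007866.20, chr6:35473597-35497076, minus strand) had 1554, 1348 and 1617 counts, and 0.15 [0.08, 0.22]. For TEAD3, 31.6% of all expressed genes had a higher value. TEAD4 (ENSG00000197905.8, chr12:2959330-3040673, plus strand) had 777, 844 and 703 counts, and -0.05 [-0.16, 0.05].

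Summed, the TEAD mRNAs had 9681 counts in NC and 9237 in siYAP, a log2 fold change of 0.02 [-0.01, 0.05]. The value was -0.02 when groups were scaled by total counts, and 0.11 when transcripts without an Ensembl identifier were left out. In FPKM the sum was 103 in NC cells, 94.1 with GAS5 and 104 with siYAP. Per FPKM of YAP1 plus WWTR1 there were 1.38 FPKM of TEAD in NC cells, 1.3 with GAS5 and 1.98 with siYAP. The make-up of the TEAD pool was close between NC and siYAP: TEAD1 held 25.7% and 25.2% of it, TEAD2 35.4% and 35.9%, TEAD3 22.0% and 23.6%, and TEAD4 16.9% and 15.2%. In GAS5 the shares of TEAD1 to TEAD4 were 22.9%, 34.3%, 22.0% and 20.8%.

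VGLL4 (ENSG00000144560.14, chr3:11556070-11771350, minus strand), the TEAD-binding competitor of YAP, had 1253 counts in NC cells, 1152 with GAS5 and 1268 with siYAP. Its log2 fold change in siYAP was 0.11 [0.03, 0.19], a value exceeded by 36.4% of all expressed genes, and it was 0.26 with Ensembl transcripts only. Relative to YAP1, VGLL4 was at 0.302 FPKM per FPKM in NC cells, 0.34 with GAS5 and 0.761 with siYAP. VGLL3 (ENSG00000206538.8, chr3:86876388-86991119, minus strand) had 5.0 counts in NC cells, 7.0 with GAS5 and 13.0 with siYAP, under the limit of 50, and no fold is given. VGLL1 (ENSG00000102243.12, chrX:136532152-136556807, plus strand) was listed at 0 in every group, where a count of 0 allows up to 3 fragments over the libraries of a group.

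**Figure D2:**
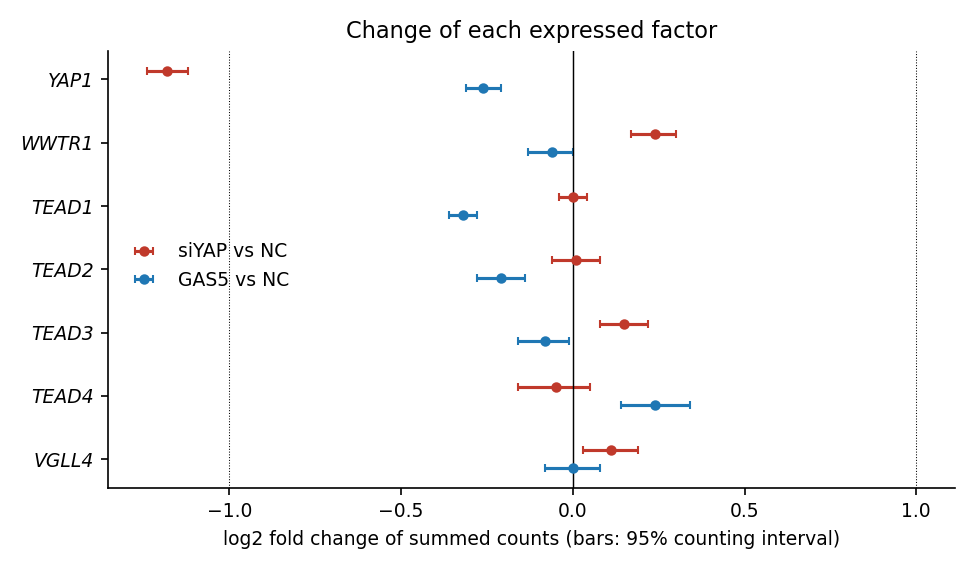
Log2 fold change of the summed counts of the 7 expressed factors, siYAP against NC in red and GAS5 against NC in blue, with 95% counting intervals as bars and dotted lines at 2-fold. YAP1 in siYAP at -1.18 is the only point past a dotted line, and every other point lies between -0.32 and 0.24.

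With the GAS5 plasmid, no factor passed 2-fold or 1.4-fold, where 1.07% and 7.04% of all expressed genes did. YAP1 was at a log2 fold change of -0.26 [-0.31, -0.21], and 14.6% of all genes were lower. TEAD1 was the lowest of the factors, at -0.32 [-0.36, -0.28], with 9.52% of all genes lower. Without the transcripts that have no Ensembl identifier, TEAD1 turned to 0.15 in GAS5 and to 0.29 in siYAP. TEAD2 was at -0.21 [-0.28, -0.14] and TEAD3 at -0.08 [-0.16, -0.01]. TEAD4 was the one TEAD above NC, at 0.24 [0.14, 0.34], and VGLL4 was at 0.00 [-0.08, 0.08].

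The direction of WWTR1 in GAS5 depended on the measure. Summed counts gave -0.06 [-0.13, 0.00], while the ratio of summed FPKM gave a log2 value of 0.20. The WWTR1-203 transcript, the longer of the main pair, was at -0.29 [-0.39, -0.20] in GAS5, and WWTR1-201 was at 0.03 [-0.09, 0.15]. Of the 4 transcripts with a mean of at least 50 counts, the other two were shorter, so that a fragment adds more to their FPKM: WWTR1-209, of 697 bases, had 6.75 FPKM in NC and 10.5 in GAS5, and WWTR1-211, of 503 bases, had 3.17 and 5.02. They had 129 and 45.1 counts in NC and were picked after their values were seen. The TEAD sum in GAS5 was -0.21 [-0.24, -0.18]. It was -0.13 as a ratio of summed FPKM and -0.02 with Ensembl transcripts only. Both treatments were compared with the same NC means, so any error in the NC value of a gene is carried into both of its fold changes.

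**Figure D3:**
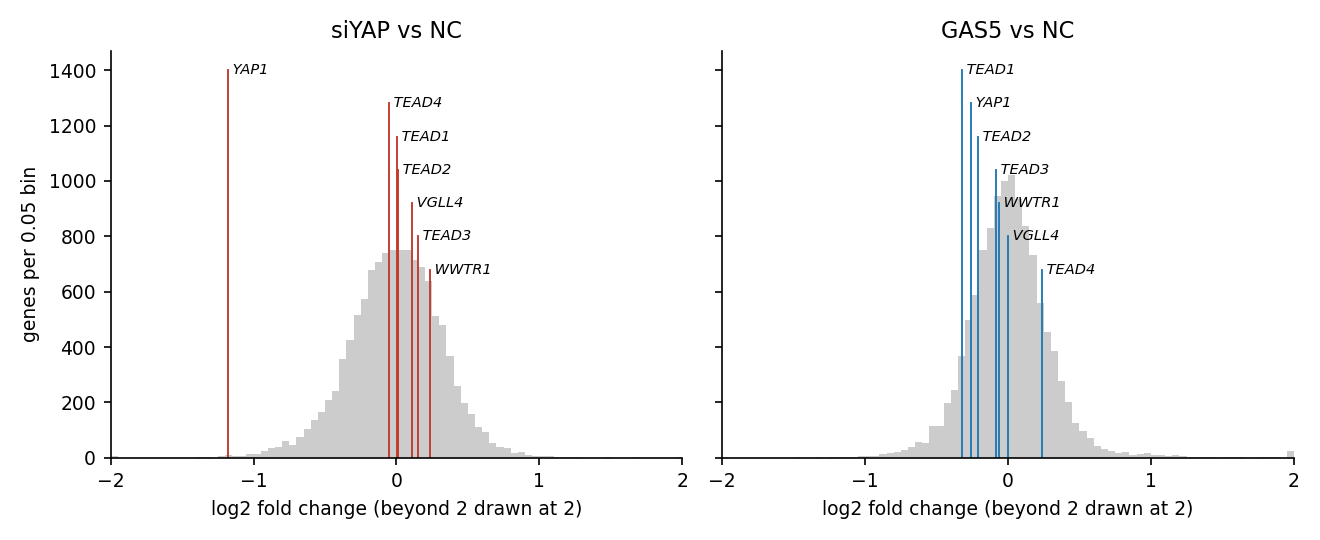
Number of expressed genes per 0.05 of log2 fold change (grey, 11907 genes), siYAP against NC on the left and GAS5 against NC on the right, with vertical lines at the 7 expressed factors whose heights carry no value. In siYAP, YAP1 at -1.18 lies in the lower tail, and the other factors lie between -0.05 and 0.24 within the bulk of the genes.

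The lower YAP1 value in siYAP was shared by most of its transcripts, with one exception. Of 8 YAP1 transcripts with a mean of at least 50 counts, 7 were lower in siYAP and 5 of these were past 2-fold, against 5.52% of all 26020 transcripts past 2-fold lower and 4.12% higher. YAP1-201 was the most abundant transcript by counts, with 1201 in NC cells, 748 with GAS5 and 441 with siYAP, and a log2 fold change of -1.35 [-1.47, -1.24] in siYAP. YAP1-208 had 552, 468 and 260 counts in the same order, and -0.99 [-1.15, -0.84]. YAP1-203, with 511, 417 and 183 counts, was at -1.38 [-1.57, -1.22] in siYAP. The less abundant YAP1-202 and YAP1-209 were at -1.80 [-2.07, -1.58] and -1.47 [-1.75, -1.24]. YAP1-204, whose mean over the groups was under 50, had 60.9, 49.5 and 13.0 counts and was at -1.99 [-2.81, -1.52]. The furthest from NC was YAP1-207, with 208, 234 and 40.0 counts, and -2.24 [-2.65, -1.94] in siYAP. In GAS5, YAP1-207 was at 0.29 [0.10, 0.49], while YAP1-201 was at -0.56 [-0.66, -0.47].

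The exception was YAP1-210, singled out after its values were seen. Its counts were 281 in NC cells, 188 with GAS5 and 283 with siYAP, a log2 fold change of 0.10 [-0.08, 0.27] in siYAP. YAP1-210 differs from YAP1-201 by the 12 bases of the exon 5 extension printed above in capitals and by no other exon base. Reads outside these bases fit both transcripts, so the split between them rests on the fragments that cross the extension and on the authors' estimation. YAP1-202, YAP1-207, YAP1-209 and YAP1-211 carry the extension too, so fragments that cross it can also fit these. The values of these transcripts therefore rest on the estimation as well. The gene sum does not depend on how fragments were split between the transcripts.

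**Figure D4:**
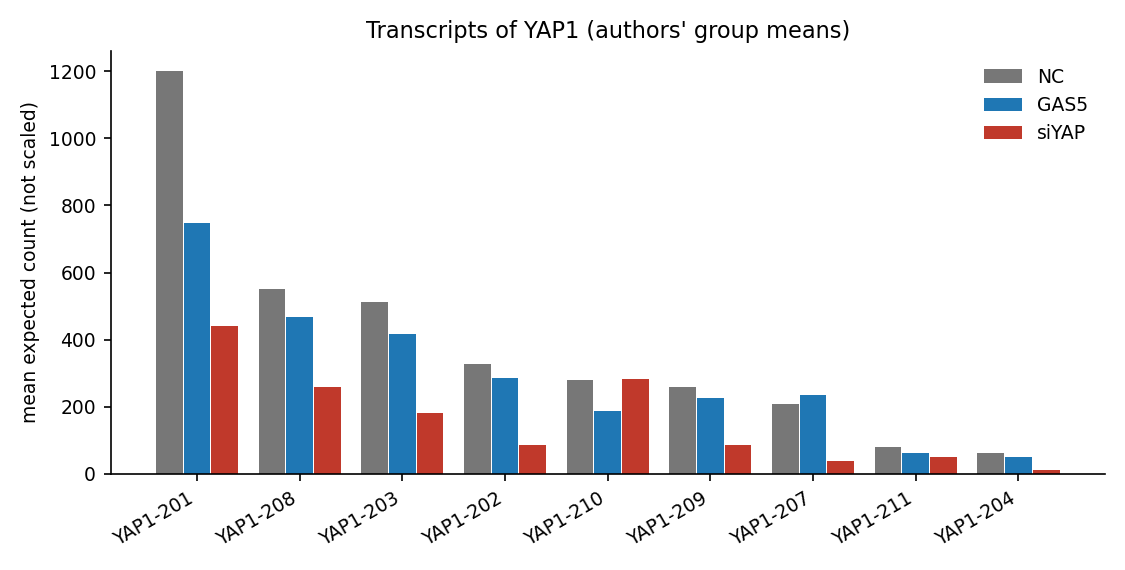
Mean estimated counts of the 9 YAP1 transcripts in each group, not scaled between groups and named as in GENCODE 29, with no error bars. YAP1-201 had 1201 counts in NC and 441 in siYAP, and YAP1-210 had 281 and 283.

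Over all transcripts with bases on both sides of it, exon 4 was present in 87.3% of the YAP1 FPKM in NC cells, 86.6% with GAS5 and 88.0% with siYAP. Transcripts with the second WW domain were therefore the larger part in every group. The exon 5 extension was present in 28.3%, 32.0% and 28.8% of FPKM, and in 33.2%, 37.2% and 37.9% of counts. Exon 6 was present in 61.3%, 60.5% and 55.4% of FPKM, and in 72.7%, 69.9% and 71.6% of counts. For both of these, FPKM and counts gave a different size of difference between NC and siYAP, and no spread between libraries is known.

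Among TEAD transcripts with a mean of at least 50 counts, one of TEAD4 was furthest from NC. TEAD4-203, which lacks the exon printed above and has its annotated coding start 3 coding exons later than TEAD4-202, had 122 counts in NC cells, 55.3 with GAS5 and 14.7 with siYAP. The log2 fold change of this transcript was -2.81 [-3.59, -2.42] in siYAP and -0.99 [-1.35, -0.68] in GAS5. Both fold changes use the same NC estimate, so an error in that estimate is carried into both. Of all 26020 transcripts, 5.52% were past 2-fold lower in siYAP. TEAD4-202, which has the exon, had 567, 675 and 594 counts, at 0.16 [0.04, 0.28] in siYAP and 0.37 [0.26, 0.49] in GAS5. A TEAD4 protein without the DNA-binding part is known from earlier work as a form that binds YAP but not DNA. The exon was present in 81.4% of FPKM in NC cells, 91.7% with GAS5 and 97.4% with siYAP, so the estimated share of the short form was highest in NC. By counts the values were 84.0%, 93.2% and 97.8%. TEAD4-203 has 31 exon bases that TEAD4-202 lacks, and TEAD4-202 has 325 that TEAD4-203 lacks. Reads outside these bases fit both transcripts, so the split between them rests partly on the authors' estimation. The middle exon of TEAD4, exon 6 of TEAD4-202, stayed between 90.7% and 91.5% of FPKM in all groups.

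In TEAD1, most counts lay on 2 transcripts that the authors assembled from reads, and whose exons are not in the tables. Assembled transcripts held 72.0% of the TEAD1 counts in NC cells, 61.1% with GAS5 and 65.9% with siYAP. TCONS_00019217 had 2629, 1740 and 2681 counts, at 0.12 [0.06, 0.17] in siYAP and -0.47 [-0.54, -0.41] in GAS5. TCONS_00019215 had 1421, 788 and 803 counts, at -0.73 [-0.82, -0.64] in both comparisons. TEAD1-203, an annotated transcript, had 1297, 1371 and 1564 counts, at 0.36 [0.28, 0.44] in siYAP and 0.20 [0.12, 0.28] in GAS5. The transcripts of TEAD1 thus went in different directions while their sum in siYAP was level with NC. TEAD1-206 had 41.7 counts in NC and 28.6 in GAS5 and was given as 0 for siYAP.

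The short exon of TEAD1 was measured on few fragments: transcripts with it had 131 counts in NC and those without it 148. It was present in 30.5% of their FPKM in NC cells, 29.2% with GAS5 and 38.2% with siYAP. By counts the values were 46.9%, 46.2% and 59.8%. Assembled transcripts and TEAD1-203, with 72.0% and 23.0% of the TEAD1 counts in NC, are not in this share. It therefore does not describe the whole gene. TEAD1-206, which lacks the exon, was given as 0 for siYAP. The short exon of TEAD2 was present in 27.6%, 24.3% and 24.3% of FPKM. The main TEAD2 transcripts were at -0.14 [-0.27, -0.01] for TEAD2-201, -0.21 [-0.35, -0.07] for TEAD2-204 and 0.18 [0.05, 0.32] for TEAD2-210 in siYAP. In GAS5 these were at -0.55 [-0.69, -0.41], -0.47 [-0.62, -0.32] and 0.18 [0.05, 0.32]. The main TEAD3 transcript, TEAD3-201, held 79.8% of the gene's counts in NC and was at 0.07 [-0.01, 0.15] in siYAP. TEAD3-203 held 14.6% and was at 0.25 [0.06, 0.44].

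VGLL4-201, the main VGLL4 transcript, had 950 counts in NC cells, 845 with GAS5 and 1072 with siYAP, at 0.26 [0.17, 0.35] in siYAP. An assembled transcript, TCONS_00101844, had 200, 199 and 83.1 counts, at -1.16 [-1.45, -0.91] in siYAP and 0.11 [-0.09, 0.32] in GAS5. Over the 9 genes, 31 transcripts had a mean of at least 50 counts. In siYAP, 7 of these were past 2-fold lower, where 5.52% of all transcripts were. Of the 7, 5 were from YAP1, and the others were TEAD4-203 and TCONS_00101844. None of the 31 was past 2-fold higher, where 4.12% of all transcripts were. In GAS5, none was past 2-fold, where 4.26% of all transcripts were past 2-fold lower and 4.50% higher.

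**Figure D5:**
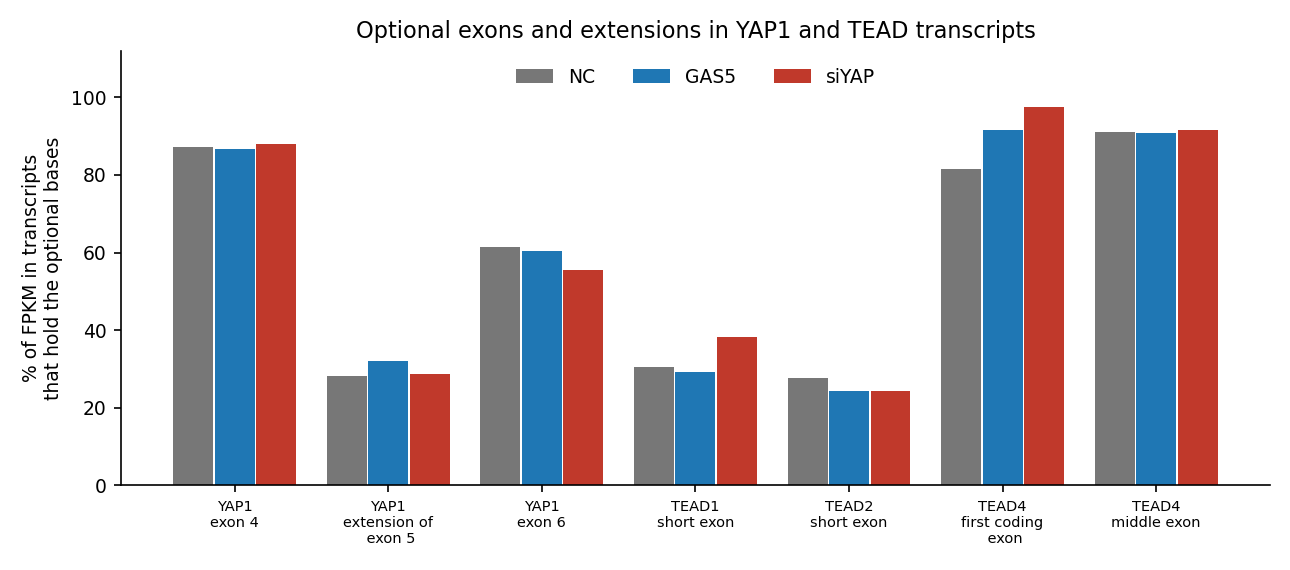
Share of FPKM in transcripts that hold an optional stretch, among transcripts with bases on both sides of it, in NC, GAS5 and siYAP, from the authors' group means with no error bars. The estimated share for the first coding exon of TEAD4 goes from 81.4% in NC to 97.4% in siYAP, while exon 4 of YAP1 stays between 86.6% and 88.0%. The TEAD1 share leaves out the assembled transcripts and TEAD1-203.

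Most genes known to be activated by YAP and TEAD were higher in siYAP than in NC. Of 24 such genes, 18 were expressed. In siYAP 15 of these were above NC and 3 below, where 5948 of all 11907 genes were above and 5959 below. The median log2 fold change of the 18 was 0.28, against 0.00 over all genes. Past 1.4-fold, 5 were higher and none lower, where 4.96% of all genes were higher and 6.43% lower. The largest values were those of FJX1, a secreted protein related to four-jointed of the fly, and AXL, a receptor tyrosine kinase. FJX1 had 258 counts in NC cells, 322 with GAS5 and 370 with siYAP, and AXL had 2848, 2718 and 4046. Their log2 fold changes in siYAP were 0.61 [0.45, 0.78] and 0.60 [0.55, 0.65]. CTGF, a matricellular protein and the usual reporter of YAP activity, is added outside the rule for named genes. It had 79.5, 122 and 84.0 counts, at 0.17 [-0.15, 0.49] in siYAP and 0.72 [0.44, 1.04] in GAS5.

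In GAS5, 11 of the 18 target genes were above NC and 7 below, where 5977 of all 11907 genes were above and 5930 below. The median of the target genes was 0.18, against 0.00 over all genes. That median was 0.05 when the minimum mean was 10 counts and 0.31 with Ensembl transcripts only. Past 1.4-fold, 5 were higher and none lower, where 3.76% of all genes were higher and 3.28% lower. CYR61, a matricellular protein related to CTGF, was the one past 2-fold, with 540 counts in NC and 1058 in GAS5 and a log2 fold change of 1.09 [0.99, 1.20]. The same gene had 621 counts in siYAP, at 0.29 [0.17, 0.41].

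The Hippo kinases and their activators lie upstream of YAP and TAZ. Of 22 genes, 21 were expressed, with medians of -0.15 in siYAP and -0.11 in GAS5. In siYAP, 3 were past 1.4-fold lower and none higher, where 6.43% of all genes were lower and 4.96% higher. FRMD6, a FERM-domain protein, had 701 counts in NC and 365 in siYAP, at -0.85 [-0.98, -0.72]. MOB1A, the cofactor of the LATS kinases, had 4279 and 2658 counts, at -0.60 [-0.65, -0.55]. In GAS5, 1 gene was past 2-fold, where 1.07% of all genes were: RASSF1, a scaffold that binds the MST kinases, had 317 counts in NC and 664 in GAS5, at 1.18 [1.05, 1.32].

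Proteins that bind YAP, TAZ or TEAD had a median of -0.06 in both comparisons over 28 of 29 genes. In siYAP, 1 was past 1.4-fold higher, AMOTL2, a junction protein that tethers YAP and is itself a YAP target, at 0.54 [0.49, 0.59], where 4.96% of all genes were past 1.4-fold higher. The lowest in siYAP was RUNX2, a transcription factor that binds the WW domains of YAP, at -0.45 [-0.67, -0.24]. In GAS5, RUNX2 was at -0.65 [-0.88, -0.42] and RUNX1 at -0.54 [-0.63, -0.46], and these were the 2 past 1.4-fold, where 3.28% of all genes were past it in that direction. Genes for degradation of YAP and TAZ and for the palmitoylation of TEADs had medians of 0.22 in siYAP and 0.08 in GAS5 over 12 genes. The furthest in siYAP were LYPLA2, a depalmitoylating enzyme, at 0.79 [0.74, 0.84] and ZDHHC18, a palmitoyltransferase, at 0.61 [0.53, 0.70]. In GAS5 the furthest were ZDHHC18 at 0.44 [0.36, 0.53] and USP9X, a deubiquitinase, at -0.26 [-0.31, -0.22].

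Among the marker genes, CLDN4, a tight-junction protein, was at 0.77 [0.73, 0.80] in siYAP, and KRT19, a keratin, at 0.50 [0.48, 0.51]. In GAS5 the furthest epithelial markers were CDH1, the epithelial cadherin, at -0.42 [-0.47, -0.37] and KRT8, a keratin, at 0.34 [0.33, 0.35]. COL1A1, a fibroblast collagen, was at 0.60 [0.47, 0.74] in siYAP and 0.67 [0.54, 0.81] in GAS5, and CD68, a macrophage protein, at 0.09 [-0.11, 0.30] and 0.58 [0.40, 0.77].

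Few genes had values like those of YAP1. Likeness was measured as the distance between genes in the pair of log2 fold changes, over 8027 genes with at least 500 counts in NC, and it rests on 3 group means. The nearest was DEPDC1, at a distance of 0.06, with -1.19 in siYAP and -0.32 in GAS5. It was followed by KCTD9 at 0.12, the DNA repair protein BRCA1 and the kinetochore protein KNL1 both at 0.17, and XRCC2, a DNA repair protein, at 0.19. Only DEPDC1 was within 0.1 of YAP1, whereas 387 genes were within 0.1 of WWTR1. These numbers follow from where the genes lie: YAP1 in the sparse lower tail in siYAP, WWTR1 in the bulk of all genes. Those nearest to WWTR1 were TRAPPC9, BCL3, NGRN, AES and NINJ1, each at 0.24 in siYAP and at -0.07 or -0.06 in GAS5.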

How the data were processed

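Strand-specific libraries (dUTP method) of total RNA were sequenced by the authors on an Illumina HiSeq instrument. The submitters' processing notes name TopHat2 2.1.1. The genome build, the counting tool and its strand setting are not given in the sources used here. The deposited expected counts are the authors' estimated counts per transcript, averaged over the 2 libraries of a group, and the deposited FPKM values were averaged in the same way, with 0.001 in place of 0. In all counts the last of the decimals was 0 or 5, as in a mean of 2 values. The authors' log2 fold change, p-value and FDR columns were deposited as well and were not used.

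Symbols came from the siYAP table. Exon positions, strands and sequences came from GENCODE 29 on GRCh38, which holds 62 of the 72 transcripts. Exons of YAP1, WWTR1, TEAD2 and VGLL4 overlap genes on the opposite strand and none on the same strand, so reads of these partners cannot be told apart if strand was not used in counting. For all 7 expressed factors, the gene's mean times 2 was whole within 0.03, as it was for 86.5% of expressed genes.

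Means were scaled with TMM of edgeR 4.0.16 in R 4.3.3, and intervals were computed with scipy 1.17.1 in Python 3.11.15. The scaling, fold changes and intervals were tested on simulated gene counts with counting error only. Spread between cultures and the splitting of reads between transcripts were not simulated. The count test planned for libraries could not be run on means. Alternatives were DESeq2 1.42.0 size factors, total counts, a prior count of 0.5, the ratio of summed FPKM, Ensembl transcripts only, transcripts with at least 10 counts in all 3 groups, and for counts of genes and list medians a minimum of 10 or none.

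Named were all 9 factors and their transcripts with at least 10% of the gene's NC counts, or past 2-fold with at least 20 counts in a group. Of each other list, genes past 2-fold were named (at most 5), or the 2 furthest from 0. The factors and lists were chosen with earlier results of these data known.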

Additional observations from a re-analysis of the deposited data

How the results depend on the processing

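No paired analysis was possible because each group is given as a single mean, and for the same reason the replicate block and leaving out each replicate were not run. The range allowed for a value was the counting interval of the reported value, or 1.5 times for counts of genes. For the WWTR1 shares it was the half-width of the count share, and for list medians the median half-width of the genes. Over 15 results, 78 of 93 values under the alternatives stayed within that range and 15 moved. Of these, 2 changed sign, WWTR1 in GAS5 and the TEAD sum in siYAP, and the reported value was past 1.4-fold in 0 of them. The ratio of summed FPKM moved the log2 fold change of YAP1 to -1.26 in siYAP and -0.19 in GAS5, that of WWTR1 in GAS5 to 0.20, and that of the TEAD sum in GAS5 to -0.13. Total counts moved the TEAD sum in siYAP to -0.02. With Ensembl transcripts only, the TEAD sum moved to 0.11 in siYAP and -0.02 in GAS5, which leaves out the assembled TEAD1 transcripts, and the median of the YAP-TEAD target genes in GAS5 moved to 0.31. That median was 0.27 with transcripts of at least 10 counts in all groups and 0.05 with a minimum mean of 10 counts. With no count filter, 2 factors were past 2-fold and 2 past 1.4-fold in siYAP, since VGLL3 joined YAP1 with 5.0 and 13.0 counts. Taken from summed counts, an alternative chosen after seeing the data, the WWTR1 share of the pair came to 34.2% (NC), 37.3% (GAS5) and 58.1% (siYAP). Apart from the assembled TEAD1 transcripts and the lower minimum, the cause was not tested. Depth limits VGLL1 and VGLL3, and the missing spread between libraries limits every other comparison.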
